A study of Mus musculus with 8 samples.

Results

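The genes described here encode enzymes that remove superoxide and peroxides: 6 peroxiredoxins (Prdx1 to Prdx6), catalase (Cat), the superoxide dismutases Sod1 and Sod2, and the glutathione peroxidase Gpx1. They were measured in spleens of 8-week-old Nix-null mice (Nix-/-, 4 animals) and wild-type mice (4 animals), with 1 array per spleen and no treatment. Strain, sex and the deleted part of Nix (Bnip3l) are not given in the sources used here. Every probe set annotated to 1 of the 10 symbols was taken, which gave 24 of the 45037 non-control probe sets on the array, for 8 of the 10 genes. Prdx5 and Prdx6 had no annotated probe set and were not analysed here. Only probe sets that reached log2 5 in 4 or more of the 8 arrays were tested. This left 21 member probe sets, and 3 dim ones, 1 each of Prdx4, Sod1 and Sod2, were not tested. The arrays carry the sample numbers 2, 3, 6 and 10 for Nix-null (Nix_KO) and 3, 4, 5 and 6 for wild-type (WT) mice.

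Superoxide dismutases turn superoxide into hydrogen peroxide, Sod1 mainly in the cytosol and Sod2 in the mitochondrial matrix. Hydrogen peroxide is then removed by catalase in peroxisomes, by Gpx1 with glutathione in the cytosol and mitochondria, and by peroxiredoxins, which use a reactive cysteine and are mostly restored by thioredoxin. Prdx1 and Prdx2 are cytosolic, Prdx3 is mitochondrial and Prdx4 lies in the secretory pathway. Red cells carry much catalase, Gpx1, Sod1 and Prdx2 to protect haemoglobin, and the mouse spleen makes red cells, so part of their signal here can come from that lineage. Nix is known for its role in the removal of mitochondria as red cells mature.

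Some features of the arrays touch the results below. Each of the 3 Bnip3l probe sets shares its annotation with a pseudogene, none of the 3 passed the test, and they did not check the genotype labels. Pancreatic acinar genes, foreign to spleen, had a mean log2 intensity of 12.91 in Nix_KO 3, 11.82 in WT 3 and 9.71 in WT 5, and of 4.64 to 7.05 in the other 5 arrays. The female-specific RNA Xist read from 12.63 to 13.42 in Nix_KO 2, Nix_KO 3, WT 3 and WT 4, where the Y-linked gene Kdm5d read from 2.47 to 3.07. In Nix_KO 6 Kdm5d read 7.73 and Xist 4.83. Both were above log2 5 in Nix_KO 10 (Xist 10.64, Kdm5d 7.41), WT 5 (10.76 and 7.58) and WT 6 (7.90 and 8.21). Red cell precursor markers were called higher in Nix-null spleens, 10 of 10 tested, beside 14.2% of all genes. Their mean log2 intensity ran from 12.30 to 12.86 among Nix-null and from 9.53 to 11.38 in wild-type arrays.

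RefSeq promoter windows (assembly GRCm38.p6, 250 bases before to 50 after the start) were found for 9 of the 10 genes, all but Prdx6, and searched on both strands for 3 motifs. TGACNNNGC, the core of the antioxidant response element read by NRF2, occurred in 2 of the 9, Prdx1 and Sod1, and in 12.4% of all 32851 windows. The motif of GATA factors, AGATAA, occurred in 0 of the 9 and in 11.2% of all windows. GGGCGG, the GC box, occurred in 9 of the 9 and in 35.7% of all windows. The stretches below are from the cytosolic members with the antioxidant response core, Prdx1 and Sod1, and from the mitochondrial members Prdx3 and Sod2. They are among the genes compared within arrays further on, while Prdx2, also compared there, has no stretch here. Capitals mark the antioxidant response core in Prdx1 (chr4:116685440-116685499, plus strand) and Sod1 (chr16:90220680-90220739, plus strand), where it lies on the opposite strand, and GC boxes (on the opposite strand, CCGCCC, in Prdx3) in Prdx3 (chr19:60874539-60874618, minus strand) and Sod2 (chr17:13007704-13007783, plus strand). A match is a run of letters and was not tested as a binding site.
Prdx1: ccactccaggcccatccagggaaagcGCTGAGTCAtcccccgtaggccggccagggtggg
Sod1: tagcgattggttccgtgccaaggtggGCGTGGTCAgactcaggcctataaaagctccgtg
Prdx3: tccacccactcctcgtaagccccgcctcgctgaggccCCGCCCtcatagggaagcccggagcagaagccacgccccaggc
Sod2: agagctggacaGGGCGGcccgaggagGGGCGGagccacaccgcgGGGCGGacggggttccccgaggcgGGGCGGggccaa

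The clearest rises were those of mitochondrial Prdx3 and cytosolic Prdx2, each by more than 2-fold, while Prdx1 stayed within its spread. Each gene took its brightest probe set by the mean of the 8 arrays, among those annotated to that gene alone, which gave 7 member genes (Prdx2, Prdx3, Prdx4, Cat, Sod1, Sod2 and Gpx1). Of these 7, 3 were higher in Nix-null spleens (Prdx2, Prdx3 and Gpx1) and 0 lower by limma with Benjamini-Hochberg adjustment over 11027 genes at 0.05. At an unadjusted limma p under 0.05, 5 were higher and 0 lower. The share of all genes at that threshold was not taken, so this count has no background. After adjustment 38.3% of all genes tested were called, 14.2% higher and 24.1% lower. A positive change of any size was seen in 7 of the 7 members and in 39.7% of all genes. The groups did not overlap, with Nix-null higher, in 5 of the 7 and in 15.7% of all genes, and in 0 of the 7 was Nix-null lower without overlap, against 23.9%. The median log2 change was 0.44 over the 7 genes and -0.15 over all genes. With each array centred on its median these medians were 0.56 and -0.02, the background was 17.1% higher and 18.7% lower, and Sod2 was called as well. Changes in whole spleen can come from more cells of a type or more RNA per cell, which cannot be told apart here.

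**Figure D1:**
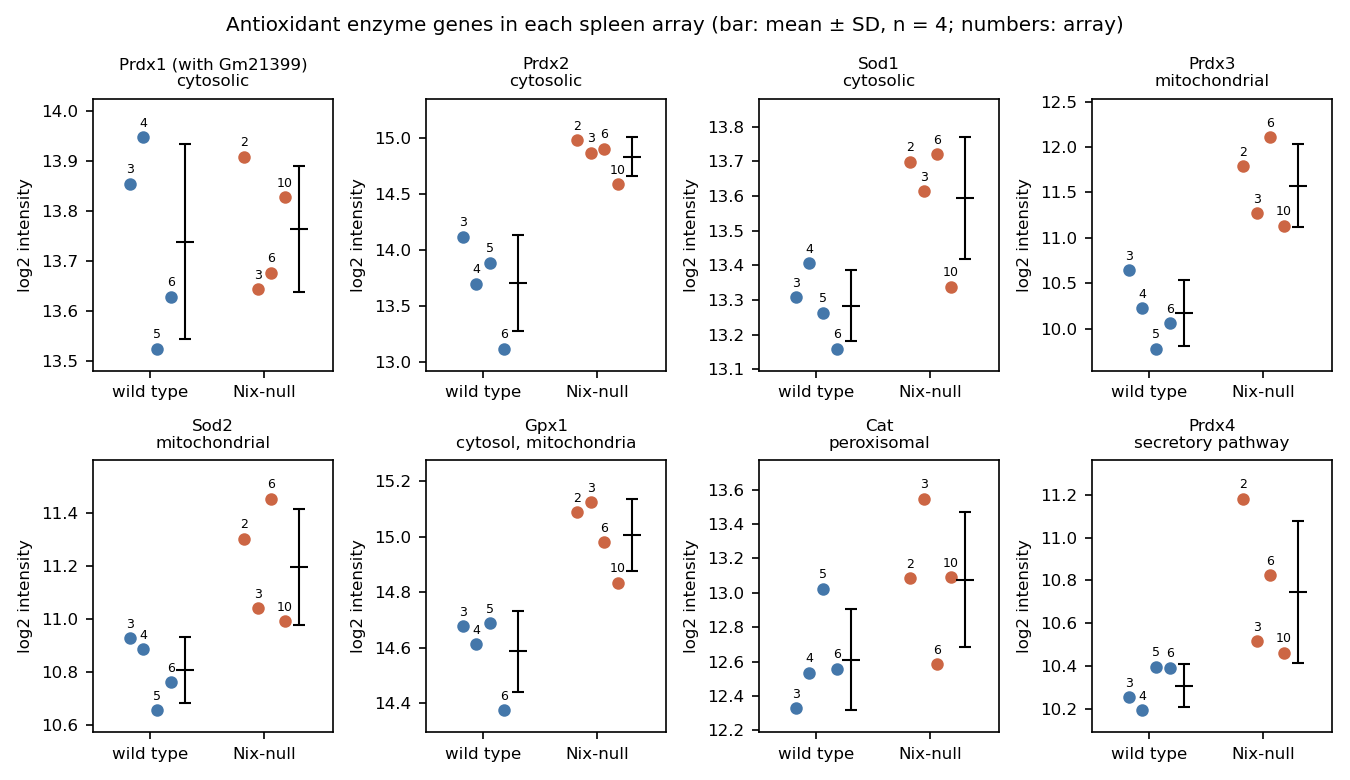
Log2 intensity (vertical axis, a separate range in each panel) of the probe set that represents each member gene, in 4 wild-type and 4 Nix-null arrays; the numbers are those of the arrays and the bar is the mean with its SD. Prdx2, Prdx3, Sod2, Gpx1 and Prdx4 have groups that do not overlap, while Prdx1, Sod1 and Cat overlap.

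Prdx3, the mitochondrial peroxiredoxin, has a single probe set (1416292_at). It read log2 intensities of 11.79, 11.27, 12.11 and 11.13 in Nix_KO 2, 3, 6 and 10, and of 10.65, 10.22, 9.78 and 10.06 in WT 3, 4, 5 and 6. Every Nix-null array was above every wild-type array, with Nix_KO 6 highest and WT 5 lowest. The means were 11.57 ± 0.45 and 10.18 ± 0.36 (SD, n = 4 each). The log2 change was 1.40 ± 0.25 (SE), or 2.63-fold, with a limma adjusted p of 0.00271. In 95.6% of all genes tested the change was smaller than this. Without the 3 arrays with pancreatic signal the change was 1.53 (limma adjusted p = 0.0277 over genes), but the probe set did not pass over all probe sets. Without Nix_KO 10 and WT 5 the change was 1.41 (limma adjusted p = 0.00752 over genes). Nix_KO 10 and WT 5 had both Xist and Kdm5d above log2 5, as had WT 6. Without WT 6 the change was 1.36 (limma adjusted p = 0.00955), and without Nix_KO 6 it was 1.22 (limma adjusted p = 0.00607).

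Prdx2, an abundant peroxiredoxin of red cells, has 2 probe sets. The brighter one (1418506_a_at) read 14.98, 14.87, 14.90 and 14.59 in Nix_KO 2, 3, 6 and 10, and 14.12, 13.70, 13.89 and 13.12 in WT 3, 4, 5 and 6. The Nix-null arrays lay close together and above all wild-type arrays, among which WT 6 was lowest. These levels lie near the top of the arrays, whose highest log2 intensities were 16.20 to 16.34, and any compression of the change was not tested. Prdx2 changed by 1.13 ± 0.21 (SE) on the log2 scale, or 2.19-fold (limma adjusted p = 0.00326). The change was 1.41 without the 3 arrays with pancreatic signal (limma adjusted p = 0.0244 over genes), where neither Prdx2 probe set passed over all probe sets. Without Nix_KO 10 and WT 5 the change was 1.27 (limma adjusted p = 0.00982 over genes). Without WT 6 it was smaller, 0.93 (limma adjusted p = 0.00744). The dimmer probe set (1430979_a_at) varied more, from 9.88 to 11.82 in Nix-null and from 8.45 to 9.97 in wild-type arrays, so its groups overlapped. Its log2 change of 1.53 ± 0.42 (SE) passed over all 22347 probe sets (limma adjusted p = 0.0244).

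In the same arrays the red cell precursor list had mean log2 intensities of 12.58, 12.86, 12.75 and 12.30 in Nix_KO 2, 3, 6 and 10, and of 11.38, 10.92, 10.70 and 9.53 in WT 3, 4, 5 and 6. As for Prdx2, WT 3 was the highest and WT 6 the lowest wild-type array and Nix_KO 10 the lowest Nix-null array, while the highest Nix-null array was Nix_KO 3 for the list and Nix_KO 2 for Prdx2. Its median log2 change over the 10 tested genes was 2.21, and its summed intensity ran from 93582 to 121099 among Nix-null and from 23363 to 52540 among wild-type arrays. For dividing cells 5 of 5 tested genes were called higher, beside 14.2% of all genes. The list means were 11.78, 11.86, 12.08 and 11.41 in Nix_KO 2, 3, 6 and 10, and 10.70, 10.16, 9.61 and 9.58 in WT 3, 4, 5 and 6. Nix_KO 6 and Nix_KO 10 were the highest and lowest Nix-null arrays for both this list and Prdx3, and WT 3 was the highest wild-type array for both, while the lowest was WT 6 for the list and WT 5 for Prdx3. These array orders were not particular to 1 list. The dividing cell list shared with Prdx2 its highest wild-type array, WT 3, and the lowest of each group, WT 6 and Nix_KO 10. The neutrophil list also had WT 3 highest (11.17) and WT 6 lowest (8.41) among wild-type arrays, and Nix_KO 2 highest (12.28). Array orders thus cannot tell these cell types apart, and the part of any of them in the change of Prdx2 or Prdx3 was not tested.

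**Figure D2:**
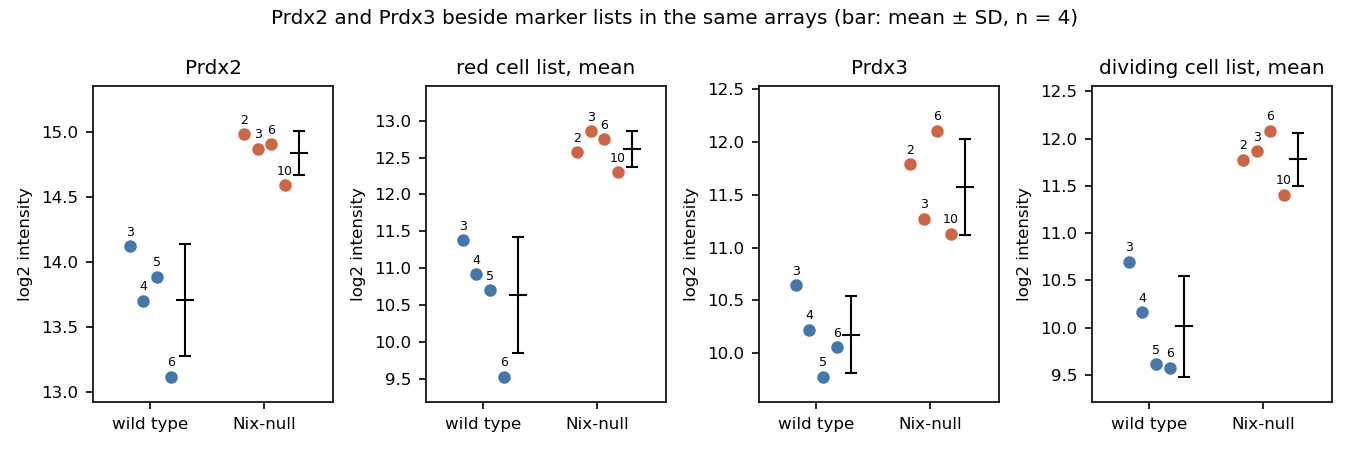
Log2 intensity of Prdx2 and Prdx3 beside the mean log2 intensity of the red cell precursor and dividing cell lists in the same 8 arrays; points are arrays with their numbers and bars are the mean with its SD. In each panel all 4 Nix-null arrays are above all 4 wild-type arrays.

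Profiles most like those of 4 members were sought by the root mean square difference over the 8 arrays, each profile centred on its own mean. For Prdx2 these were Glrx5, an iron-sulfur cluster glutaredoxin (0.066 log2 units), Espl1, the separase that parts sister chromatids (0.114), and Iba57, of iron-sulfur cluster assembly (0.129). For Prdx3 they were Cks2, a subunit of cyclin-dependent kinases (0.096), Tarsl2 (0.102) and St7 (0.118). The 3 nearest to Sod2 were 0610009B22Rik, Poglut2 and Nap1l4 (0.061 to 0.070), and those nearest to Cat were Myo9a, Ube2r2 and Elovl7 (0.126 to 0.157). These genes were picked for likeness and are a description.

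Prdx1, the other cytosolic peroxiredoxin, showed no change past the test in any probe set. All 5 of its probe sets are annotated jointly to Prdx1 and its pseudogene Gm21399, so their values belong to both and Prdx1 was not part of the gene count above. The brightest (1434731_x_at) read 13.91, 13.64, 13.68 and 13.83 in Nix_KO 2, 3, 6 and 10, and 13.86, 13.95, 13.52 and 13.63 in WT 3, 4, 5 and 6. The groups overlapped fully, and the log2 change was 0.03 ± 0.15 (SE, limma adjusted p = 0.917). The other 4 probe sets had log2 changes from -0.01 to 0.15, with limma adjusted p from 0.449 to 0.994.

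Sod1, the cytosolic copper and zinc superoxide dismutase, did not pass in any of its 4 tested probe sets. The brightest (1459976_s_at) read 13.70, 13.61, 13.72 and 13.34 in Nix_KO 2, 3, 6 and 10, and 13.31, 13.41, 13.26 and 13.16 in WT 3, 4, 5 and 6. Of the Nix-null arrays 3 were above all wild-type arrays and Nix_KO 10 fell among them. Its log2 change was 0.31 ± 0.15 (SE, limma adjusted p = 0.115). The remaining probe sets had log2 changes of 0.36, 0.68 and -0.14 (limma adjusted p = 0.126, 0.0705 and 0.609 over all probe sets), so 1 of the 4 had the opposite sign.

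Sod2, the mitochondrial manganese superoxide dismutase, was higher in every Nix-null array than in any wild-type array in each of its 3 tested probe sets, and 1 of the 3 passed. The brightest (1448610_a_at) read 11.30, 11.04, 11.45 and 10.99 in Nix_KO 2, 3, 6 and 10, and 10.93, 10.89, 10.66 and 10.76 in WT 3, 4, 5 and 6. The gap between the groups was small, from 10.93 to 10.99. Its log2 change was 0.39 ± 0.16 (SE, limma adjusted p = 0.0706 over genes). A dimmer probe set (1454976_at) changed by 0.53 ± 0.15 (SE), or 1.45-fold, and passed over all probe sets (limma adjusted p = 0.0254), while the third changed by 0.50 ± 0.20 (SE, limma adjusted p = 0.0875). With the mean of the 3 probe sets Sod2 passed as a gene (0.47, limma adjusted p = 0.0275), and so it did with arrays centred on their median (0.51, limma adjusted p = 0.035).

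Gpx1, which removes hydrogen peroxide with glutathione, read 15.09, 15.12, 14.98 and 14.83 in Nix_KO 2, 3, 6 and 10, and 14.68, 14.61, 14.69 and 14.37 in WT 3, 4, 5 and 6 (1460671_at). The groups did not overlap, with WT 6 lowest. These levels lie near the top of the arrays, whose highest log2 intensities were 16.20 to 16.34. Gpx1 changed by 0.42 ± 0.14 (SE) on the log2 scale, or 1.34-fold, with a limma adjusted p of 0.0412 over genes. The same probe set did not pass over all probe sets (limma adjusted p = 0.0526), and the gene call was lost on leaving out any single array except Nix_KO 10, with limma adjusted p from 0.0557 to 0.133 and changes from 0.35 to 0.45.

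Catalase (Cat), the peroxisomal enzyme, gave different calls in its 2 probe sets. The brighter (1416429_a_at) read 13.09, 13.55, 12.59 and 13.09 in Nix_KO 2, 3, 6 and 10, and 12.33, 12.54, 13.02 and 12.56 in WT 3, 4, 5 and 6. Nix_KO 6 lay among the wild-type arrays and WT 5 was close to the other Nix-null arrays. This probe set changed by 0.47 ± 0.22 (SE, log2 scale, limma adjusted p = 0.121). Without Nix_KO 6 it was 0.63 and passed (limma adjusted p = 0.0388), and without Nix_KO 3 it was 0.31 and did not (limma adjusted p = 0.28). Of 18 alternatives Cat passed as a gene in 3. The other passes came with the mean of its probe sets (0.68, limma adjusted p = 0.0235) and with arrays weighted in the fit (0.56, limma adjusted p = 0.0348).

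The dimmer Cat probe set (1416430_at) read 11.75, 12.53, 11.93 and 11.51 in Nix_KO 2, 3, 6 and 10, and 10.84, 11.02, 11.34 and 10.93 in WT 3, 4, 5 and 6. Here the groups did not overlap, and both probe sets were highest in Nix_KO 3 among Nix-null and in WT 5 among wild-type arrays. It changed by 0.90 ± 0.23 (SE) on the log2 scale, or 1.86-fold (limma adjusted p = 0.0172 over all probe sets). Foxo3, a transcription factor known to drive antioxidant genes including Cat and Sod2, rose 2.47-fold (log2 change 1.30 ± 0.20 SE, limma adjusted p = 0.00166). Its part in the values of Cat and Sod2 was not tested.

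Prdx4, the peroxiredoxin of the secretory pathway, read 11.18, 10.52, 10.83 and 10.46 in Nix_KO 2, 3, 6 and 10, and 10.25, 10.19, 10.40 and 10.39 in WT 3, 4, 5 and 6 (1416166_a_at). The groups did not overlap, by a gap of 10.40 to 10.46, and Nix_KO 2 was highest. The log2 change was 0.44 ± 0.18 (SE, limma adjusted p = 0.0775). Of 18 alternatives it passed in 1, without Nix_KO 10 (0.53, limma adjusted p = 0.0492), while without Nix_KO 2 it was 0.29 (limma adjusted p = 0.149). The other tested probe sets changed by 0.47 and 0.27 and did not pass (limma adjusted p = 0.162 and 0.216).

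Pancreatic acinar cells and plasma cells are both known to secrete protein heavily. The 3 arrays with pancreatic signal, Nix_KO 3, WT 3 and WT 5, read 10.52, 10.25 and 10.40 for Prdx4, of which the last was the highest wild-type value. Without them the Prdx4 change was 0.53 (limma adjusted p = 0.185). Of that list's 9 tested genes 0 passed in either direction by limma, and its summed intensity ran from 293 to 79379 among Nix-null and from 571 to 41285 among wild-type arrays. Of 6 plasma cell markers 4 fell and 2 did not pass, beside 24.1% of all genes that fell. The summed intensities of these markers were 15575 to 24449 among Nix-null and 20660 to 27682 among wild-type arrays. The part of either cell type in the Prdx4 values was not tested.

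**Figure D3:**
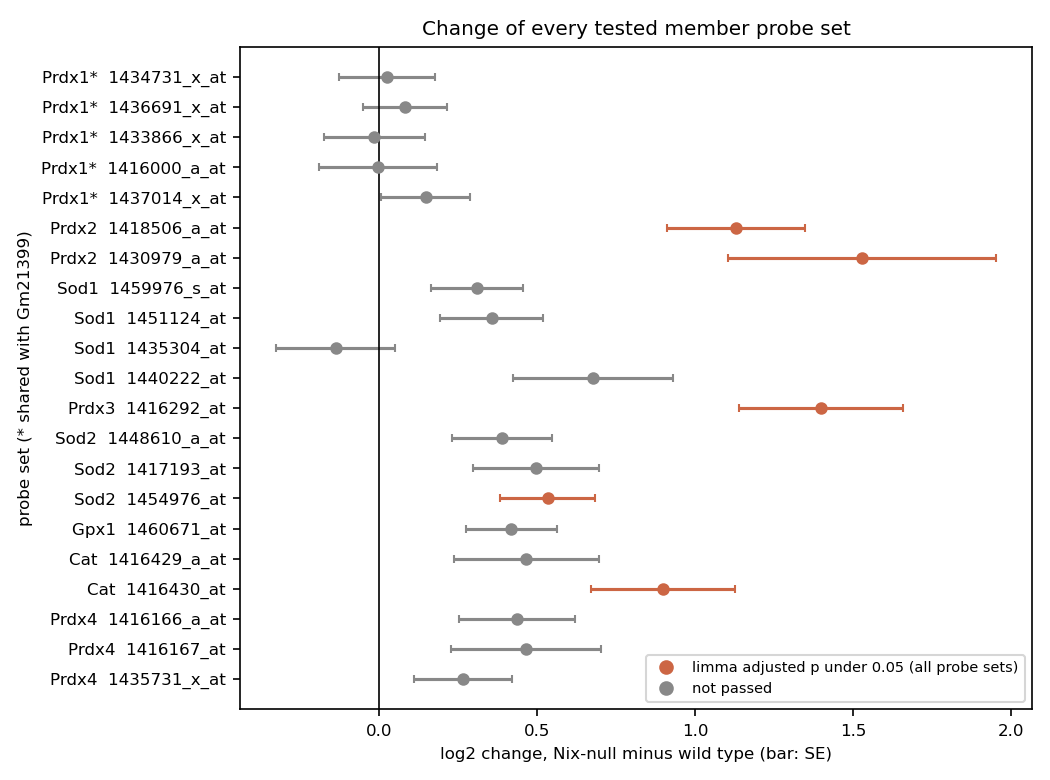
Log2 change (horizontal axis, Nix-null minus wild type, bar = SE) of the 21 tested member probe sets, brightest first within each gene; a star marks probe sets shared with Gm21399. Coloured points passed over all probe sets, which are both of Prdx2, the 1 of Prdx3, and 1 each of Sod2 and Cat.

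Over all 21 tested probe sets, 5 were called higher and 0 lower by limma. Of all 22347 probe sets 30.0% were called, 12.5% higher and 17.6% lower. At an unadjusted limma p under 0.05, 10 of the 21 were higher and 0 lower. The share of all probe sets at that threshold was not taken, so this count has no background. Of the 21, 18 had a positive change, against 41.3% of all probe sets. In 8 of the 21 the groups did not overlap, each with Nix-null higher, against 15.0% of all probe sets, while 19.5% of all did so with Nix-null lower. The count called fell from 5 to 3 without WT 5, to 2 without WT 6 and to 0 without the 3 arrays with pancreatic signal, where 6 were higher at an unadjusted limma p under 0.05. In these settings the share of all genes called higher fell as well, from 14.2% to 11.4%, 11.1% and 7.67%. The share of all probe sets was not taken there.

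Cytosolic and mitochondrial members did not separate cleanly, because each compartment held a gene that rose and a gene that did not pass. The mitochondrial genes Prdx3 and Sod2 had log2 changes of 1.40 and 0.39, with a median of 0.89. The cytosolic genes Prdx1 (joint probe set), Sod1 and Prdx2 had log2 changes of 0.03, 0.31 and 1.13, with a median of 0.31. The difference of these medians was 0.58, and it dropped to 0.17 when Prdx1, read through probe sets shared with its pseudogene, was left out. Measured from each gene's wild-type mean, the mitochondrial median minus the cytosolic one was 0.64, 0.33, 0.85 and 0.48 in Nix_KO 2, 3, 6 and 10, and 0.18, -0.06, -0.25 and 0.04 in WT 3, 4, 5 and 6. All 4 Nix-null values were above the wild-type ones, and no p is given for this summary over members.

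Single pairs were tested within arrays, as the log2 intensity of a mitochondrial member minus that of a cytosolic one. For Prdx3 minus Prdx1 this value was -2.12, -2.37, -1.57 and -2.70 in Nix_KO 2, 3, 6 and 10, and -3.21, -3.72, -3.75 and -3.57 in WT 3, 4, 5 and 6. The groups did not overlap, and the pair changed by 1.37 (exact permutation p = 0.0286, two-sided, the smallest that 4 against 4 arrays can give). Adjusted over the 3 pairs tested it did not pass (p = 0.0857, exact permutation test), and with the other pairs at their values it could not have passed at any size. The genes of these pairs were chosen with earlier results known, so their p-values are not independent evidence. Against the other 4 joint probe sets of Prdx1 the change was 1.25 to 1.41.

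For Prdx3 minus Prdx2 the change was 0.27 with overlapping groups (exact permutation p = 0.4, also after adjustment), with means of -3.26 ± 0.35 and -3.53 ± 0.43 for Nix-null and wild type (SD over 4 arrays). That pair used the brighter Prdx2 probe set. With the mean of both Prdx2 probe sets the change was 0.07 (adjusted exact permutation p = 0.8). The dimmer one alone changed by 1.53, more than Prdx3 with 1.40. For Sod2 minus Sod1 the change was 0.08, with means of -2.39 ± 0.13 and -2.47 ± 0.11 (SD over 4 arrays, exact permutation p = 0.371, adjusted p = 0.4). A p that misses the threshold does not show that the genes of a pair changed alike.

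**Figure D4:**
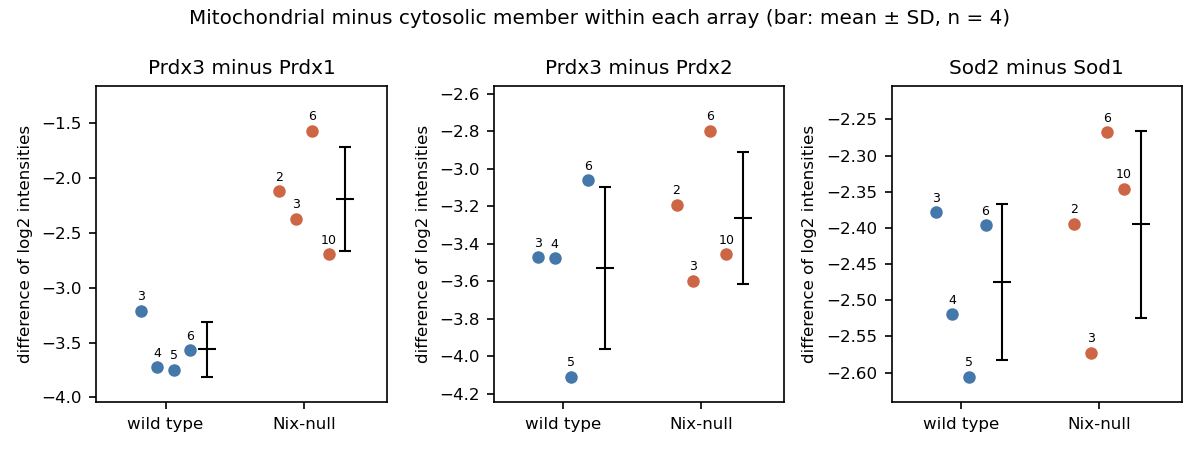
Difference of log2 intensities within each array (vertical axis) for 3 pairs of a mitochondrial and a cytosolic member, in wild-type and Nix-null arrays; bars are the mean with its SD. The groups are apart for Prdx3 minus Prdx1 and overlap for the other pairs.

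Genes that work with these enzymes were described by counts. Of 20 tested partners in peroxide and superoxide removal, 2 rose, 5 fell and 13 did not pass, and of 4 regulators 1 rose (Foxo3) and 3 did not pass. Over all genes 14.2% rose and 24.1% fell, which is near the partners' shares. The median log2 changes were 0.19 and 0.18, beside -0.15 over all genes. Glrx3 was below the filter.

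Txnrd2, the mitochondrial thioredoxin reductase that keeps the Prdx3 system reduced, rose most. It read 11.17, 10.87, 11.09 and 10.49 in Nix_KO 2, 3, 6 and 10, and 9.64, 9.37, 9.33 and 8.26 in WT 3, 4, 5 and 6. The groups did not overlap, with WT 6 and Nix_KO 10 lowest in their groups. Txnrd2 changed by 1.75 ± 0.29 (SE) on the log2 scale, or 3.37-fold (limma adjusted p = 0.00197). Txn2, the mitochondrial thioredoxin that passes electrons from Txnrd2 to Prdx3, changed by 0.27 ± 0.20 (SE, limma adjusted p = 0.312).

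The cytosolic counterparts did not pass. Txn1 changed by 0.27 ± 0.20 (SE, limma adjusted p = 0.302) and Txnrd1, named here after its value was seen, by 0.41 ± 0.20 (SE, limma adjusted p = 0.129). Without Nix_KO 6 these changes were 0.13 and 0.22, and that of Txn2 was 0.11 without Nix_KO 2. With the mean of its probe sets Txnrd1 changed by 0.20 (limma adjusted p = 0.327). Txn1 also changed by 0.15 without WT 5, and Txn2 by 0.16 without WT 6. Srxn1, sulfiredoxin, which rescues overoxidised peroxiredoxins and is a known NRF2 target, changed by 0.44 ± 0.21 (SE, limma adjusted p = 0.117). Ccs, the chaperone that loads copper into Sod1, changed by 0.47 ± 0.19 (SE, limma adjusted p = 0.0687) and its groups did not overlap. Both depended on single arrays: Srxn1 changed by 0.58 and passed without Nix_KO 10 (limma adjusted p = 0.0433) and by 0.27 without Nix_KO 2, and Ccs passed without Nix_KO 3 or Nix_KO 10 (0.57 in each, limma adjusted p = 0.0434 and 0.0454). Gsr, glutathione reductase, changed by -0.06, and the regulators Nfe2l2 (NRF2), Keap1 and Bach1 by 0.23, 0.03 and 0.14. None of these 4 passed (limma adjusted p from 0.261 to 0.894).

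Glrx5, a mitochondrial glutaredoxin needed for iron-sulfur clusters and haem synthesis, rose 2.27-fold (log2 change 1.18 ± 0.22 SE, limma adjusted p = 0.00319). Among the falls the steepest was that of Sod3, the secreted superoxide dismutase, whose values were 5.70, 5.94, 7.12 and 7.46 in Nix_KO 2, 3, 6 and 10 and 8.55, 8.56, 8.80 and 8.88 in WT 3, 4, 5 and 6. All Nix-null arrays were lower, and the change was 4.42-fold down (log2 change -2.14 ± 0.36 SE, limma adjusted p = 0.00208). Gpx3, the plasma glutathione peroxidase, fell by 0.86 on the log2 scale and Sesn3, a sestrin, by 1.0 (limma adjusted p = 0.0128 and 0.0089). Without the 3 arrays with pancreatic signal the changes were -0.73 and -1.20 and neither passed (limma adjusted p = 0.082 and 0.0611).

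Txnip, which binds thioredoxin, fell by 0.61 on the log2 scale and Gpx7, of the secretory pathway, by 0.73 (limma adjusted p = 0.0372 and 0.0456). Both calls were fragile. Txnip lost its call without Nix_KO 3, WT 4, WT 5 or WT 6, with changes of -0.65, -0.55, -0.61 and -0.61. Gpx7, with Nix-null values around the filter (mean 4.81), lost it without Nix_KO 3, Nix_KO 6, Nix_KO 10, WT 4, WT 5 or WT 6, with changes from -0.51 to -0.80.

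**Figure D5:**
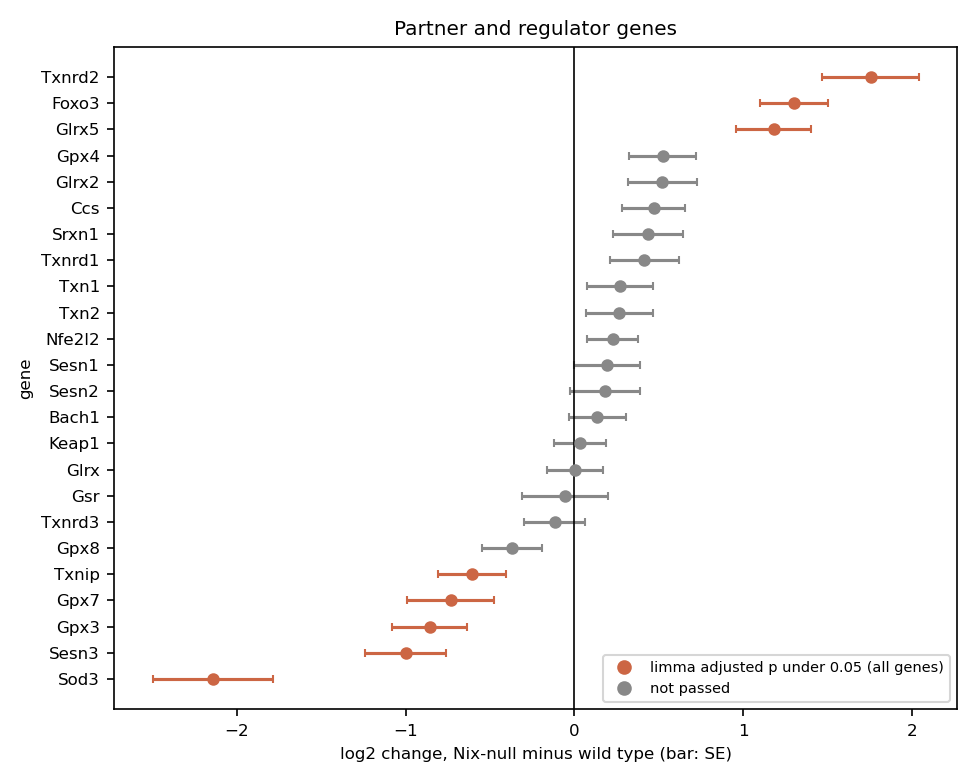
Log2 change (horizontal axis, Nix-null minus wild type, bar = SE) of 24 tested partner and regulator genes, ordered by change; coloured points passed over all genes. Txnrd2, Foxo3 and Glrx5 lie highest and Sod3 lowest.

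Other genes of mitochondria were set beside Prdx3 and Txnrd2. Of 12 mitochondrial reference genes of the respiratory chain, matrix and outer membrane, 1 rose and 0 fell by limma, and their median log2 change was 0.11, beside 14.2% higher, 24.1% lower and a median of -0.15 over all genes. The 1 that rose was Cycs, cytochrome c (log2 change 0.47 ± 0.16 SE, limma adjusted p = 0.0386). The difference between Prdx3 and this list was not tested.

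Other cell markers moved as well, in the same arrays. All 7 tested B cell markers and 5 of 6 T cell markers fell, and 8 of 8 neutrophil markers rose. Of 8 macrophage markers 3 fell and 5 did not pass. Over all genes 24.1% fell and 14.2% rose. The mean log2 intensity of the neutrophil list was 11.44 to 12.28 among Nix-null and 8.41 to 11.17 among wild-type arrays. Their part in the values of the antioxidant genes was not tested.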

How the data were processed

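RNA from 8 spleens was hybridised to 1 Affymetrix mouse array each, 4 Nix-null and 4 wild type, unpooled per the labels. Intensities on a linear scale, a value for each probe set in each array, were deposited by the authors, made with GCRMA per the submitters' processing notes; version and later scaling are not given in the sources used here. GCRMA draws dim probe sets together, so their changes are compressed. Here the deposited intensities were log2-transformed, 64 control probe sets were left out, and probe sets at log2 5 or more in at least 4 of 8 arrays were kept (22347). Names came from the platform annotation. Genotypes were compared by moderated linear models (limma 3.58.1; two-sided, Benjamini-Hochberg over all probe sets or all 11027 genes, threshold 0.05) in R 4.3.3, tested on simulated data. Pairs of members were compared by exact permutation over arrays. The number of arrays limits the precision. Named genes were all members with every probe set, partners and regulators past the threshold (up to 8 in each direction), 5 partners regardless, and the 3 nearest profiles of 4 members. Members and lists were chosen with earlier results of these data known. Prdx1, joint in the annotation, entered the probe set fit, the pairs and the compartments. Alternatives were other filters, scalings, probe set summaries, variance models, a replicate block and left-out arrays. Figures used matplotlib 3.10.9.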

Additional observations from a re-analysis of the deposited data

How the results depend on the processing

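Prdx2 and Prdx3 kept their call as genes under all 18 alternatives, with log2 changes of 0.93 to 1.41 and 1.20 to 1.55 (limma adjusted p of 0.00191 to 0.0404 and 0.00172 to 0.0497). No member was called lower under any of them. The 3 member genes called higher became 5 with the mean of probe sets, and 2 to 4 when 1 array was left out. The 5 member probe sets called higher became 8 with arrays centred on their median, 0 without Nix_KO 3, WT 3 and WT 5, and 2 to 6 when 1 array was left out. The share of all genes called higher, 14.2% in the main fit, was 14.8% with the mean of probe sets and 17.1% with centred arrays. It was 7.67% without Nix_KO 3, WT 3 and WT 5, and 11.1% to 14.7% when 1 array was left out. Called partners and regulators, 3 higher and 5 lower, became 6 and 3 with centred arrays. They were 5 higher with quantile normalization and 3 lower with no filter. Leaving out Nix_KO 3, WT 3 and WT 5 gave 1 lower, leaving out Nix_KO 10 and WT 5 (chosen after seeing the data) gave 3 lower, and leaving out 1 array gave 3 to 7 higher and 3 to 5 lower. The highest of these, 6 and 7 higher, came without Nix_KO 3 and without Nix_KO 10. Of all genes 24.1% were called lower in the main fit, 18.7% with centred arrays and 13.4% with no filter. This share was 7.6% without Nix_KO 3, WT 3 and WT 5, 18.9% without Nix_KO 10 and WT 5, and 16.1% to 24.9% when 1 array was left out. With quantile normalization 15.9% of all genes were called higher. The median mitochondrial minus cytosolic change of 0.58 became 0.17 without Prdx1 (also chosen after seeing the data) and 0.50 to 0.67 when 1 array was left out. It was 0.41 with means in place of medians and 0.43 with the replicate block. Counting Gpx1 as cytosolic gave 0.53, while Prdx5 had no probe set to move.

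Both genotypes have a sample 3 and a sample 6, and deviations from the group means correlated at 0.252 and 0.147 over probe sets for these pairs. Correlations between arrays with unlike numbers were not taken, so these values have no background. Nix_KO 3 and WT 3 also both had pancreatic signal and high Xist. With only 2 shared numbers the samples were not taken as pairs. With the replicate block 2 member genes (Prdx2 and Prdx3), 0 member probe sets (5 at an unadjusted limma p under 0.05, with no background share taken) and 2 lower partners passed, and Sod2 minus Sod1 turned to -0.033. Of all genes 7% were called higher and 6.07% lower with that block. That fit leaves 1 residual degree of freedom. With 1 array left out Prdx3 minus Prdx1 stayed at the smallest exact p (0.0857 adjusted over 3), so its not passing says nothing about stability, and the changes were 1.17 to 1.54 for Prdx3 minus Prdx1, 0.08 to 0.42 for Prdx3 minus Prdx2 and 0.04 to 0.14 for Sod2 minus Sod1. With 2 or 3 arrays left out the test cannot pass the threshold, and the adjusted exact p was 0.3 or more. The causes of these moves were not tested.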
